A study of Rattus norvegicus with 16 samples.

Results

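The rat microRNA (miRNA) hairpins rno-mir-126, rno-mir-221 and rno-mir-222 were examined in 16 small RNA libraries. They were found by their hairpin names, 3 of the 392 hairpins with reads in the files, and their 6 arms, a 5' and a 3' arm each, were followed by level, by arm and by the ends of the reads. A set of 12 libraries, 1 per tissue and strain, came from 1 BN-Lx rat and 1 SHR rat, both adult males, and covers whole heart, kidney, spleen, liver, testis and brain. BN-Lx is the brown Norway inbred strain that carries the polydactyly-luxate syndrome, SHR is the spontaneously hypertensive inbred rat, and no rat received a treatment. The other 4 libraries came from livers of 2 further BN-Lx and 2 further SHR adult males and are called the further livers, so that each strain had 3 livers.

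mir-126 lies in an intron of Egfl7, a gene of vessel endothelium, and its 3' arm is widely used as an endothelial marker that restrains inhibitors of growth factor signalling in vessels. mir-221 and mir-222 are neighbours on the X chromosome and are known from endothelium, vascular smooth muscle and dividing cells, where they act on the receptor Kit and the cell cycle inhibitor p27. The bases that pair with a target first, the seed, are bases 2 to 8 of the mature miRNA, so a read that begins 1 base later carries another seed.

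In the study's list of hairpins on the rat genome RGSC3.4, mir-126 lies at chr3:4768117-4768189, mir-222 at chrX:14935056-14935158 and mir-221 at chrX:14935617-14935725, each on the plus strand, with 458 bases between mir-222 and mir-221. The mature sequences below come from RefSeq (build GRCr8), which names the arms of mir-126 miR-126a and lists its gene as Mir126b with rno-mir-126 as a synonym. Capitals mark the seed, and the shortened form of mir-126-3p is the read from position 47 to 66 of the hairpin, the most frequent read in heart, liver, spleen, testis and SHR brain of the 12 libraries but in none of the 4 further livers.

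mir-126-3p: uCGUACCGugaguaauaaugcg

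mir-126-3p, from position 47: cGUACCGUgaguaauaaugc

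mir-126-5p: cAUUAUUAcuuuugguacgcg

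mir-221-3p: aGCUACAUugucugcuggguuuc

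mir-222-3p: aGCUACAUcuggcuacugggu

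The 3' arms of mir-221 and mir-222 shared their first 8 bases and so had the same seed, and no other of the 693 mature rat miRNAs in RefSeq had it. None of the other matures shared the seed of mir-126-5p, of mir-126-3p or of its form that begins at position 47.

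Levels are given as reads over the ocm, the outlier-corrected mean, which is the mean read number of 586 known arms in that library without the 3 highest. The depth was 26880 to 1064894 reads in the six-tissue libraries, with at least 403453 reads outside testis, and 1167607 to 3229461 reads in the further livers. The libraries of testis and the SHR liver of the six-tissue set had more PCR cycles. Most marker miRNAs went with the labels. mir-122 of hepatocytes was highest in liver, and all 4 heart muscle, all 6 neuron and all 4 male germ line hairpins were highest in their own tissue. Of the 6 kidney epithelium hairpins only 3 were highest in kidney. That list summed to 175 and 121 in BN-Lx and SHR liver of the six-tissue set, against 81.6 and 74.9 in kidney. The read number was whole, within 1e-6, on all 859 lines of the 3 hairpins in the files. All tissues of a strain in the six-tissue set came from the same rat, and p-values over those 12 libraries measure the spread between these libraries. In whole tissue, fewer cells of a type and less RNA per cell cannot be told apart.

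mir-126-3p was by far the most abundant arm, with 64349 reads in the 12 libraries, and was highest in heart and lowest in testis. Its level in BN-Lx and SHR was 17.8 and 13.8 in heart, 13.2 and 12.8 in kidney, and 11 and 9.28 in liver. It was 6.97 and 6.96 in spleen, 2.49 and 3.08 in brain, and 1.19 and 1.65 in testis. The order heart, kidney, liver, spleen, brain, testis was found in both strains, and the libraries of neighbouring tissues did not overlap. Scaled to total reads the order was the same, but heart overlapped with kidney and liver with spleen. The mean of the 2 heart libraries was 15.8 ± 2.83 (SD, n = 2), 5.66 times the mean of brain.

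The 5' arm of mir-126, which is used as a miRNA of its own in endothelium, followed the same course at a lower level. In BN-Lx and SHR it was 2.36 and 2.02 in heart, 1.66 and 1.93 in liver, and 1.36 and 1.57 in kidney. It was 0.698 and 1.06 in spleen, 0.339 and 0.515 in brain, and 0.374 and 0.363 in testis, where 12 and 13 reads were counted. Brain and testis overlapped for this arm, and liver stood above kidney, an order that turned when the reads were scaled to total reads.

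**Figure D1:**
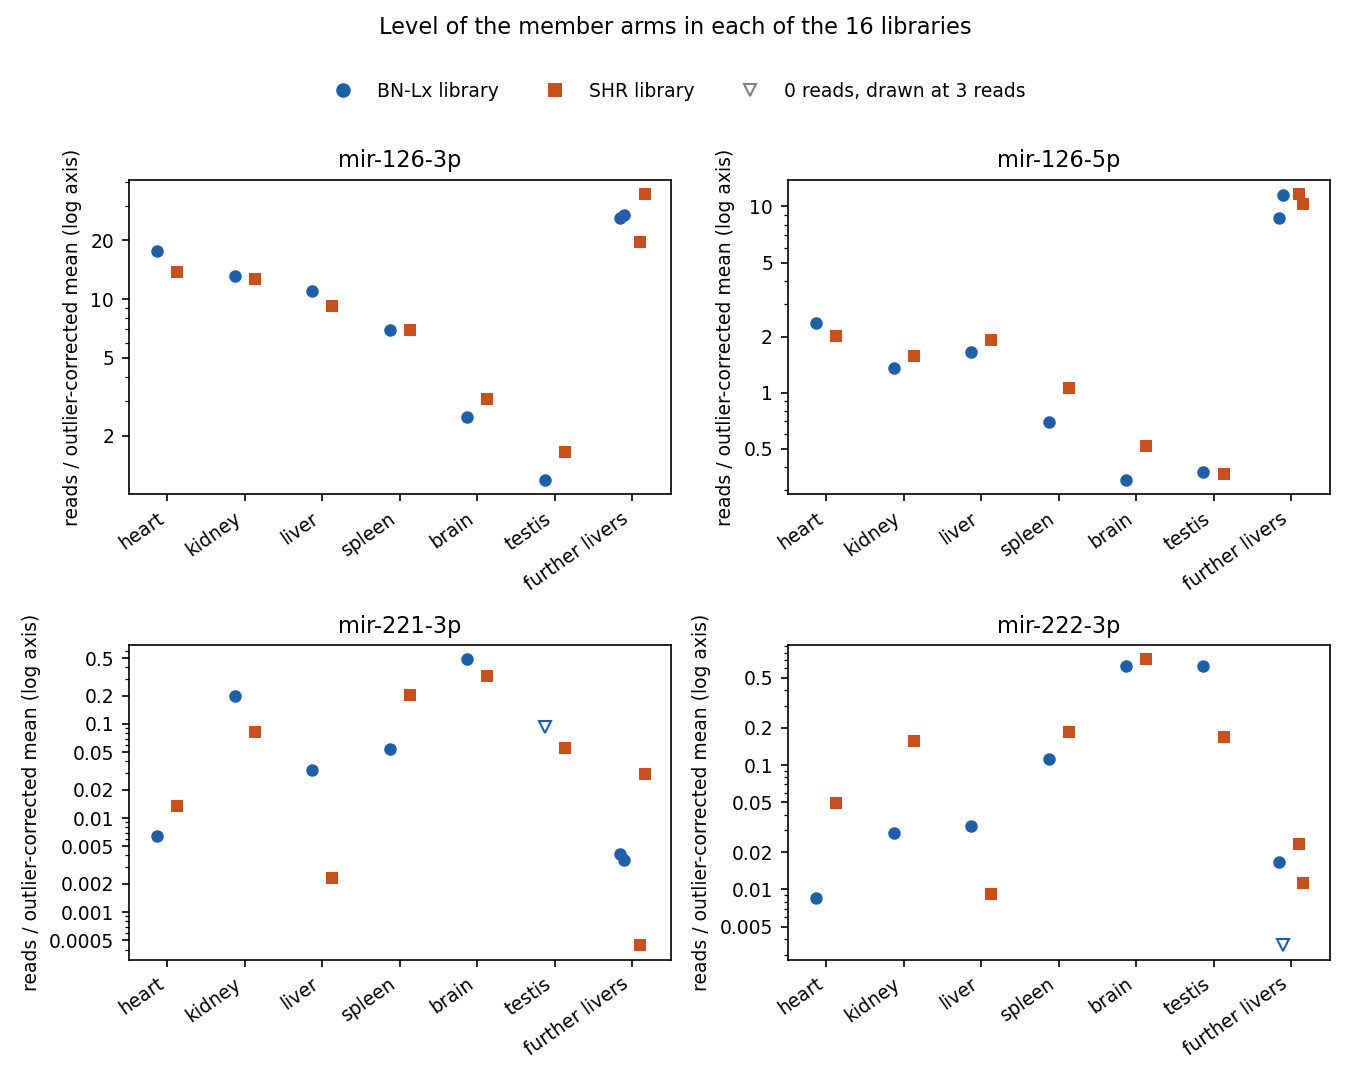
Reads over the outlier-corrected mean (log axis) of mir-126-3p, mir-126-5p, mir-221-3p and mir-222-3p in each of 16 libraries, by tissue, with the further livers apart. mir-126-3p falls from 17.8 and 13.8 in heart to 1.19 and 1.65 in testis, while mir-221-3p and mir-222-3p are highest in brain.

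All 6 arms passed the filter on low counts in the fit of the 12 libraries by edgeR's quasi-likelihood test, which asked which arms differ among the tissues with strain as a term. In the test for a difference in any tissue 4 of the 6 arms passed, and 83% of all 459 arms did, so passing was the rule. The adjusted p was 2.69e-06 for mir-126-3p, 7.24e-05 for mir-126-5p, 0.00406 for mir-221-3p and 0.00617 for mir-222-3p. It was 0.0690 for mir-221-5p and 0.790 for mir-222-5p.

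Each tissue was then set against the mean of the other 5 on the log2 scale, with the SE of the fit. mir-126-3p was higher in heart by 2.12 ± 0.23 (edgeR adjusted p = 2.71e-05), in kidney by 1.52 ± 0.24 (adjusted p = 0.000529) and in liver by 1.12 ± 0.25 (adjusted p = 0.00614). Its difference was -1.79 ± 0.31 in brain (adjusted p = 0.000247) and -3.52 ± 0.35 in testis (adjusted p = 5.4e-06). In spleen the difference was 0.56 ± 0.26 and missed the threshold (adjusted p = 0.123). The call in liver was lost without the BN-Lx liver of the six-tissue set (1.05, edgeR adjusted p = 0.0922), without both testis libraries (0.43, adjusted p = 0.209) and with scaling to total reads (0.32, adjusted p = 0.409).

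The differences of mir-126-5p had the same signs. They were 1.96 ± 0.30 in heart (edgeR adjusted p = 0.000343), 1.35 ± 0.31 in liver (adjusted p = 0.00730) and 0.97 ± 0.32 in kidney (adjusted p = 0.0432). In brain the difference was -1.81 ± 0.39 (adjusted p = 0.00138) and in testis -2.63 ± 0.44 (adjusted p = 0.000499), and in spleen it was 0.17 ± 0.33 (adjusted p = 0.863). The call in kidney held in 8 of 22 alternative analyses, was lost without either kidney library among others, and the difference was 0.35 and 0.33 with the further livers in place of the six-tissue livers. The call in liver was lost with scaling to total reads and without either liver library.

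The median of all arms in these contrasts was not at 0, and it moved with the scaling. It was -0.33 in heart, -0.38 in liver, 0.18 in kidney, 0.02 in spleen, 0.44 in brain and -0.86 in testis, and with scaling to total reads it was 1.17 in brain and 0.18 in testis. Relative to the median of all arms, mir-126-3p differed by 2.45 in heart, 1.34 in kidney, 1.49 in liver, 0.54 in spleen, -2.23 in brain and -2.66 in testis. With scaling to total reads these relative values were 2.43, 1.36, 1.46, 0.53, -2.31 and -2.67.

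The share of all 459 arms that passed was 19.8% in heart, 22.2% in kidney, 25.5% in liver, 29% in spleen, 61.9% in brain and 25.3% in testis. Of the 6 arms of these hairpins, 2 passed in heart, kidney and testis, 3 in liver, 5 in brain and none in spleen.

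**Figure D2:**
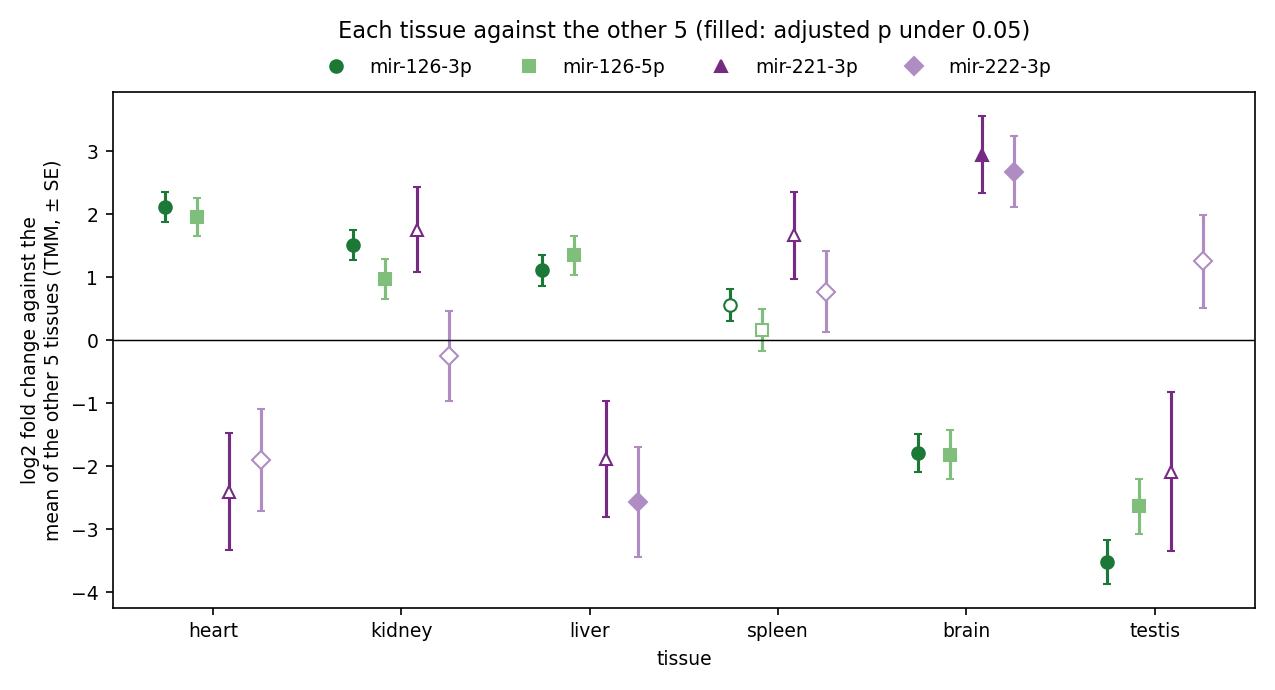
Log2 fold change of each tissue against the mean of the other 5, with the SE, for 4 arms over the 12 libraries; filled symbols have an adjusted p under 0.05. The arms of mir-126 lie above 0 in heart, kidney and liver and below 0 in brain and testis, and mir-221-3p and mir-222-3p lie above 0 in brain.

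The arms of mir-126 were much higher in the further livers than in the livers of the six-tissue set. mir-126-3p was at 26 and 27 in the further BN-Lx livers and at 19.6 and 34.5 in the further SHR livers, all above both livers of the six-tissue set and, on this scale, above both heart libraries. Scaled to total reads, the 4 further livers were again above both six-tissue livers, but SHR liver 3 alone was above both heart libraries and SHR liver 2 was below both. mir-126-5p was at 8.65 and 11.5 in BN-Lx and at 11.6 and 10.4 in SHR, a mean of 6.06 and 5.71 times the six-tissue liver of the strain. For mir-126-3p the ratio was 2.40 in BN-Lx and 2.92 in SHR. Of 190 arms with at least 10 reads in every liver, 26.8% were likewise higher in all 4 further livers than in both livers of the six-tissue set.

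With the further livers in place of the six-tissue livers, an alternative chosen after these levels were seen, mir-126-3p differed by 2.85 and 3.31 in liver against the other 5 tissues. It then differed by 1.76 and 1.68 in heart. Heart thus ranked above liver within the six-tissue set and below it with the further livers in place, on the ocm scale and in this TMM-scaled fit. Scaled to total reads, heart stayed above liver with the livers of replicate 2, by the means of the strains, and was below it with those of replicate 3. The set of livers goes with depth, and the further livers also held reads shorter than 17 nt. Their part in the difference was not tested.

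mir-126 used both arms in every library. The 5' arm made up 12% of the reads of mir-126 in BN-Lx brain (95% exact interval 11 to 13) and 14.3% in SHR brain, 9.10% and 13.3% in spleen, and 11.7% and 12.8% in heart. It was 9.30% and 10.9% in kidney, 13.1% and 17.2% in liver, and 24% (12 of 50 reads, interval 13.1 to 38.2) and 18.1% in testis. Kidney had the lowest mean share, and the share was higher in SHR than in BN-Lx in each tissue but testis. Such intervals cover counting error only.

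In the further livers the 5' arm took 25% and 29.8% for BN-Lx rats and 37.2% and 23.1% for SHR rats, again above both livers of the six-tissue set. The same held for 28.3% of 138 hairpins. The livers of the 2 strains overlapped, with 22.6% ± 8.62 in BN-Lx and 25.8% ± 10.3 in SHR (SD, n = 3; two-sided exact permutation test, p = 0.8, smallest possible 0.1).

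Whether the arm share goes with the tissue was tested by pairing the 6 SHR libraries with the 6 BN-Lx libraries in all 720 ways, and asking how often the strains lay as close as in the true pairing. For mir-126 the exact permutation p was 0.00972, and 0.225 after adjustment over the 81 hairpins with at least 20 reads in every library. None of the 81 hairpins passed (0%), and 17.3% had an unadjusted p under 0.05, so mir-126 was not singled out. mir-221 and mir-222 had too few reads for this test.

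The reads of mir-126-3p began at either of 2 neighbouring positions. Position 46 is the start of the RefSeq mature, and position 47 gives the shorter form printed above. The share that began at position 46 was 35.9% and 37.8% in brain, 36.9% and 38.9% in liver, and 34.6% and 37.4% in spleen, in BN-Lx and SHR. It was 40.8% and 42.7% in heart, 36.8% and 35.6% in testis, and 45.4% and 51.8% in kidney. Kidney was thus above every other tissue of the set, and in SHR kidney more reads began at position 46 than at 47.

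The share that began at position 47 was 44.8% in SHR kidney and 51.5% in BN-Lx kidney, and 52.7% to 62.2% in the other 10 libraries. Over the 12 libraries the pairing test on this share gave an exact permutation p of 0.0236 for mir-126-3p, and 0.194 after adjustment over 101 arms with at least 10 reads in every library. None of the 101 arms passed (0%), and 23.8% had an unadjusted p under 0.05. Without kidney the exact permutation test gave an adjusted p of 0.328. Leaving out any tissue also leaves fewer pairings, so this value cannot show whether kidney carried the difference.

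In the further livers position 46 was the more frequent start. It began 57.1% and 62.2% of the reads of the BN-Lx rats and 56.4% and 53.5% for the SHR rats, above every library of the six-tissue set. The share at position 47 was accordingly lower in all 4 further livers than in both six-tissue livers, which held for 8.95% of 190 arms, while 38.4% of arms moved to a larger share of their most frequent start. Between the strains the share at position 46 was 52.1% ± 13.4 in BN-Lx and 49.6% ± 9.40 in SHR livers (SD, n = 3; exact permutation test, p = 0.7).

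mir-126-5p, in contrast, had a fixed start. In 98.3% to 100% of its reads in each of the 16 libraries the read began at position 9, the RefSeq start. The exact pairing test on this share gave p = 0.194 by permutation, adjusted to 0.383.

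**Figure D3:**
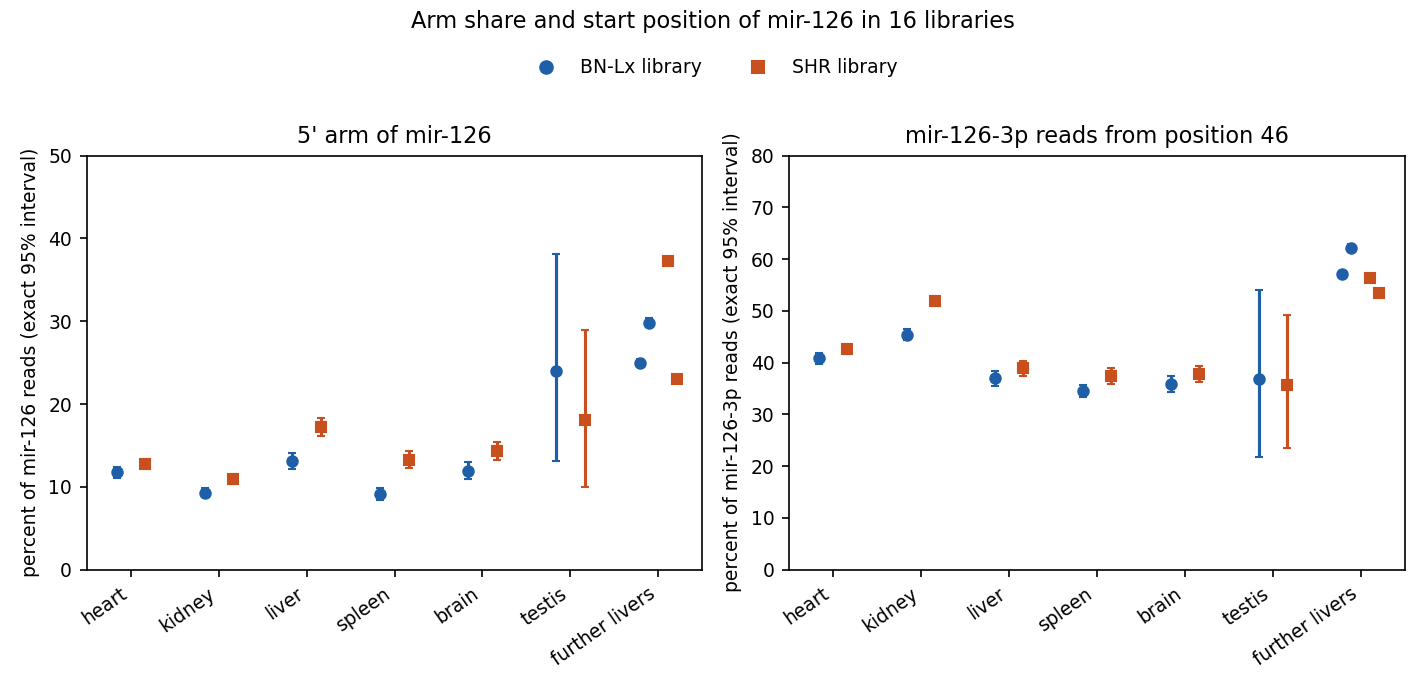
Percent of mir-126 reads on the 5' arm (left) and percent of mir-126-3p reads that begin at position 46 of the hairpin (right) in each of 16 libraries, with the exact 95% binomial interval. The further livers lie above both six-tissue livers on both measures, and in the right panel kidney, at 45.4% and 51.8%, lies above the other tissues.

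The 3' ends of mir-126-3p varied between positions 65 and 68. In BN-Lx brain 37.8% ended at position 66 and 40.8% at 67, and in BN-Lx heart 60.7% ended at 66 and 23.3% at 67. Within the six-tissue set the SHR library ended at 66 more often than the BN-Lx library in each tissue except testis, with 69.8% in SHR spleen and heart. Over the 3 livers of each strain this share overlapped, with 51.3%, 34.2% and 35.1% in BN-Lx against 62.3%, 43.8% and 24.1% in SHR. In the further livers 12.5% to 13.6% of the reads ended at position 65, against 2.63% to 5.83% in the six-tissue libraries. The mean read length of mir-126-3p ran from 20.4 to 21.1 nt in the six-tissue libraries and from 21 to 21.2 nt in the further livers, above both six-tissue livers, as for 47.4% of 190 arms.

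The pairing test on mean length gave an exact permutation p of 0.0194 for mir-126-3p and 0.0139 for mir-126-5p, each adjusted to 0.108. None of the 101 arms passed (0%), and 34.7% had an unadjusted p under 0.05. With the further livers of replicate 2 in place, 7 arms passed, mir-126-5p among them (exact permutation test, adjusted p = 0.0397).

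mir-221-3p and mir-222-3p had 1476 and 2162 reads in the 12 libraries, far fewer than mir-126-3p, and both were highest in brain. mir-221-3p was at 0.484 in BN-Lx and 0.323 in SHR brain, at 0.199 and 0.0818 in kidney, and at 0.0539 and 0.201 in spleen. In liver only 13 reads (BN-Lx) and 1 read (SHR) were counted, in heart 3 and 10. In testis BN-Lx had 0 reads, which allows a level of up to 0.0936, and SHR had 2 reads. Brain did not overlap with any other tissue, and below it kidney, spleen, testis, liver and heart overlapped with their neighbours.

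mir-222-3p was at 0.628 in BN-Lx and 0.704 in SHR brain, and at 0.111 and 0.184 in spleen. In testis it was at 0.624 and 0.168, from 20 and 6 reads, and in kidney at 0.0283 and 0.157, from 20 and 132 reads. In heart it had 4 and 37 reads and in liver 13 and 4. Brain stood narrowly above testis, and from testis downward neighbouring tissues overlapped, with liver lowest.

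In the edgeR fit mir-221-3p was higher in brain by 2.95 ± 0.62 on the log2 scale (adjusted p = 0.00114), and mir-222-3p by 2.68 ± 0.57 (adjusted p = 0.00124). In the same contrast 61.9% of all arms passed, and relative to the median of all arms the differences were 2.51 and 2.24. Both calls held in all 22 alternative analyses. mir-222-3p differed by -2.56 ± 0.87 in liver (adjusted p = 0.0480), a call that held in 10 of the 22, with adjusted p from 0.00725 to 0.437, and was lost without either liver library. mir-221-5p, at 0.0365 and 0.0398 in brain from 53 and 46 reads, was higher there by 1.78 ± 0.66 (adjusted p = 0.0315), and this call held in 10 of 22 and was lost without either brain library.

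The other contrasts of the pair missed the threshold. mir-221-3p differed by 1.76 ± 0.67 in kidney (edgeR adjusted p = 0.0770), 1.67 ± 0.69 in spleen (adjusted p = 0.0894) and -2.41 ± 0.93 in heart (adjusted p = 0.0869). It differed by -1.88 ± 0.92 in liver (adjusted p = 0.166) and -2.08 ± 1.26 in testis (adjusted p = 0.263). mir-222-3p differed by 0.77 ± 0.64 in spleen, -1.90 ± 0.81 in heart, 1.25 ± 0.73 in testis and -0.25 ± 0.71 in kidney (adjusted p from 0.114 to 0.939).

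Though they lie 458 bases apart and share a seed, the 3' arms of mir-221 and mir-222 did not keep 1 ratio. mir-221-3p made up 43.5% of the reads of the pair in BN-Lx brain (95% exact interval 41.1 to 46) and 31.5% in SHR brain (28.8 to 34.2). In spleen it was 32.6% in BN-Lx (25.1 to 40.9) and 52.3% in SHR (45.4 to 59.1). In kidney it was 87.6% in BN-Lx (81.5 to 92.2), from 141 reads of 161, and 34.3% in SHR (27.8 to 41.3), from 69 of 201. The intervals of the strains did not overlap in these 3 tissues, and the strain with the larger share was BN-Lx in brain and kidney and SHR in spleen. With 1 rat per strain and tissue these differences have no replicate check.

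The 3 livers of each strain show how far this share can spread. It was 50%, 20% and 100% in BN-Lx, from 26, 20 and 3 reads. It was 20%, 1.89% and 72.0% in SHR, from 5, 53 and 93 reads. The strains overlapped (56.7% ± 40.4 and 31.3% ± 36.4, SD, n = 3; exact permutation test, p = 0.6). The intervals of SHR livers 2 and 3, 0.0478 to 10.1% and 61.8 to 80.9%, did not overlap, so livers of 1 strain differed by more than counting error.

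**Figure D4:**
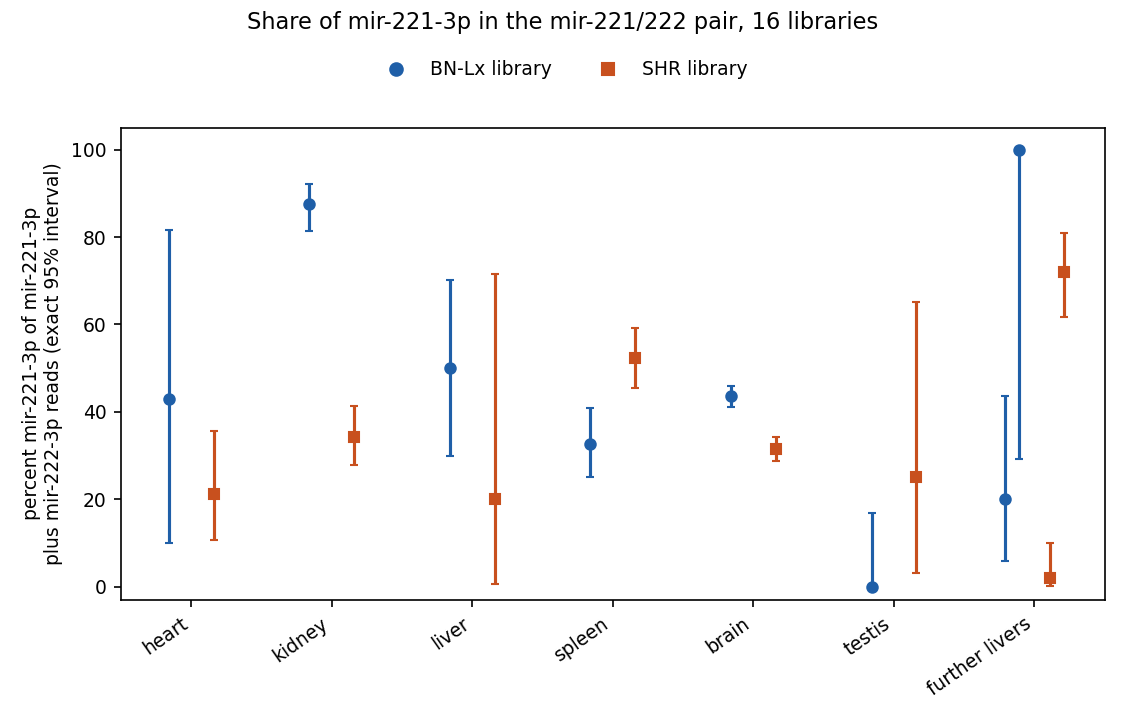
Percent mir-221-3p among the reads of mir-221-3p plus mir-222-3p in each of 16 libraries, with the exact 95% binomial interval. In kidney the BN-Lx library lies at 87.6% and the SHR library at 34.3%, and the 6 livers spread from 1.89% to 100%.

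Most reads of the pair began at 1 position. In libraries with at least 10 reads, 97.9% to 100% of mir-221-3p reads began at position 65 and 89.2% to 100% of mir-222-3p reads at position 62, the RefSeq starts. Their most frequent reads in brain ran from 65 to 86 and from 62 to 82. The 3' end of mir-221-3p varied more than its start, and in BN-Lx brain 41.8% of its reads ended at position 86, 26.8% at 87 and 17.8% at 84. The 5' arms were rare. mir-221-5p took 7% and 11% of the reads of mir-221 in BN-Lx and SHR brain, and mir-222-5p 0.436% and 0.974% of those of mir-222. mir-222-5p had 35 reads in the 12 libraries.

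No arm of the 3 hairpins passed a strain test. Over the 6 tissues edgeR called none of 459 arms (0%), 7 had an unadjusted p under 0.05, and DESeq2 called none of its arms either. SHR minus BN-Lx on the log2 scale was 0.01 ± 0.20 for mir-126-3p, 0.23 ± 0.26 for mir-126-5p, -0.19 ± 0.62 for mir-221-3p and 0.45 ± 0.57 for mir-222-3p, each with an adjusted p of 0.997. The rare 5' arms differed by 0.60 ± 0.64 (mir-221-5p) and 1.44 ± 0.93 (mir-222-5p), also with an adjusted p of 0.997. The errors were larger for the arms of mir-221 and mir-222 than for those of mir-126.

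In liver, with 3 rats per strain, edgeR called none of 270 arms (0%), 8 had an unadjusted p under 0.05, and DESeq2 called mir-463-5p only, a name given here after its values were seen. Of the 6 arms 3 passed the filter. SHR minus BN-Lx was 0.11 ± 0.65 for mir-126-3p, 0.28 ± 0.90 for mir-126-5p and 0.06 ± 1.14 for mir-222-3p (edgeR adjusted p = 0.994 for each). The levels were 21.4 ± 8.94 in BN-Lx and 21.1 ± 12.7 in SHR for mir-126-3p (SD, n = 3), and 7.27 ± 5.06 and 7.97 ± 5.28 for mir-126-5p, with liver 1 the lowest of the 3 in each strain. The main test thus holds livers of both sets, with unlike levels. With the replicate number as a block, 22 of 270 arms had an unadjusted edgeR p under 0.05, and with the 4 further livers alone 40 of 303. Neither alternative called an arm.

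The strain difference was also compared between liver and the other tissues. Each tissue but liver has 1 library per strain, so the spread came from the livers alone. The lone libraries of the other tissues were assumed to vary like them. edgeR called none of 502 arms (0%), 5 had an unadjusted p under 0.05, and DESeq2 called mir-378-5p only, again a name given after its values were seen. The adjusted p was 1 for all 6 arms.

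The level of mir-126-3p over the 12 libraries was set beside that of 258 arms with at least 10 reads in at least 6 libraries, on a log2 scale of TMM-scaled reads with 1 added. Its own 5' arm had a Pearson's r of 0.973. The 5 most like it among other hairpins were mir-27b-3p (r = 0.953), mir-28-3p (0.95), mir-23a-3p (0.945), mir-28-5p (0.938) and mir-26a-5p (0.935). mir-27b-3p, for example, was at 2.38 and 2.15 in heart and at 0.234 and 0.671 in testis. These values are descriptions over 12 libraries that share rats and scaling.

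mir-221-3p was most like mir-187-3p (r = 0.922), mir-409-3p (0.845), mir-181a-1-3p (0.837), mir-103-2-5p (0.807) and the rat homologue of hsa-mir-582-3p (0.788), and its r with mir-222-3p was 0.393. mir-222-3p was most like mir-204-5p (0.822), mir-324-5p (0.776), mir-138-2-5p (0.776), mir-138-1-5p (0.744) and the homologue of mmu-mir-702-3p (0.727). mir-187-3p was at 0.392 and 0.255 in brain and 0.0551 and 0.0379 in kidney. mir-204-5p was at 7.60 and 5.26 in brain and 14.8 and 12.3 in testis. Neither neighbour on the X chromosome was thus among the 5 arms most like the other. These r rest partly on small counts, whose part was not tested. In the heart and liver libraries of the six-tissue set mir-221-3p and mir-222-3p had 1 to 37 reads, and in BN-Lx testis 0 and 20.

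A list of other miRNAs known from vessels (mir-143 and mir-145 of smooth muscle, the mir-23, mir-24 and mir-27 hairpins of endothelium, and mir-130a, mir-10 and mir-17 to mir-92a-1) held 17 hairpins. Of these 16 were in the files, with 32 arms of which 27 were tested. In brain 21 of the 27 passed, all lower, with a median of -2.56 against 0.44 over all arms. With RLE size factors, the ocm or total reads 17, 16 and 15 passed in brain, all lower. In heart 11 were higher and 1 lower, with a median of 0.95 against -0.33. With scaling to the ocm or total reads heart had 9 higher and 5 lower. In kidney 9 were higher and none lower, and 5 were higher with RLE size factors or the ocm. In spleen 13 were higher and 1 lower, and 10 were higher with RLE size factors and 9 with the ocm or total reads. In liver 6 were higher and 1 lower, which turned to 2 and 4 with scaling to total reads. In testis 4 were higher and 8 lower, which turned to 8 and 7 with scaling to the ocm. Over all 459 arms 61.9% passed in brain, 19.8% in heart, 22.2% in kidney, 29% in spleen, 25.5% in liver and 25.3% in testis with TMM. Hairpins of 1 cluster, such as those of mir-17, are not separate counts.

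The 6 arms of the list with most reads were mir-145-5p, mir-24-2-3p, mir-24-1-3p, mir-23a-3p, mir-23b-3p and mir-19b-1-3p. The copies of mir-24 share their 3' arm, so their values are not separate. mir-145-5p, an arm of vascular smooth muscle, was at 160 and 146 in heart and 14.2 and 17.8 in brain, and differed by 2.14 ± 0.18 in heart (edgeR adjusted p = 2.43e-06). mir-23a-3p was at 38.7 and 38.5 in heart and 6.39 and 6.37 in testis, and differed by 2.30 ± 0.19 in heart (adjusted p = 2.36e-06). mir-19b-1-3p, of the mir-17 cluster, was highest in spleen and testis, with -0.70 ± 0.29 in heart (adjusted p = 0.109).

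Markers of other cells moved between the tissues as well. The summed level of mir-143 and mir-145 was 168 and 153 in heart, 119 and 106 in testis and 14.9 and 18.6 in brain. On the ocm scale testis was thus high in this list, while it was lowest in mir-126-3p. The place of testis in this list moved with the scaling. In the TMM-scaled fit mir-145-5p differed by 0.06 ± 0.21 in testis (edgeR adjusted p = 0.975) and by 0.60 ± 0.20 in spleen (adjusted p = 0.0385). The 5 blood cell hairpins (mir-142, mir-150, mir-223, mir-144 and mir-451) summed to 234 and 218 in spleen and to 5.51 to 41.6 elsewhere. In the further livers they summed to 14.4 to 18.3, below 25.0 and 26.6 in the livers of the six-tissue set. There mir-143 and mir-145 summed to 63.0 to 97.5 against 50.7 and 45.8. mir-122 of hepatocytes was also higher in the further livers, at 626 to 709 against 401 and 452. The kidney epithelium list was lower, at 89.0 to 113 against 175 and 121. No summed list was at 0 in any library, and the part of these cells in the levels of mir-126 was not tested.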

How the data were processed

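Total RNA of whole tissues was isolated with mirVana, size-selected for small RNA on a gel, made into libraries with the Ambion SREK kit and sequenced on SOLiD by the authors. The deposited files list an estimated count of reads per hairpin and pair of read ends, since the authors divided reads that fit several hairpins evenly. They trimmed the linker, mapped with SHRiMP to hairpins on RGSC3.4 and miRBase v12 and kept perfect matches, without normalization. The other deposited columns are positions on the hairpin.

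Reads were summed per arm by the midpoint of the read and rounded to whole numbers for the tests. Arms were tested by edgeR 4.0.16 (quasi-likelihood, TMM, filterByExpr, two-sided, Benjamini-Hochberg at 0.05 over all arms tested), with DESeq2 1.42.0 as an alternative, in R 4.3.3. The 12 libraries were fitted with tissue and strain, the 6 livers with strain. Shares and lengths were tested by exact permutation of 720 pairings (scipy 1.17.1), for which the smallest p is 0.00139. Intervals are exact (Clopper-Pearson, 95%), and a count of 0 allows 3 reads. The tests were also run on simulated data, drawn for edgeR with a common dispersion and for the pairing test with normal noise. Apart from the changes put in, the simulated tissues did not differ. Such runs do not give the error rates of the tests in these data. The labels give replicate numbers without a pairing of the strains. Deviations of same-numbered livers from the mean of their strain correlated at 0.668, 0.570 and 0.299. Liver 1 of both strains is the six-tissue liver, so the difference between the sets alone can give such correlations, and they cannot show a pairing.

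The hairpins, the vessel list and the marker lists were chosen with earlier results of these data known. Named beside the members are the 5 arms most like each main 3' arm and the 6 vessel arms with most reads. The piRNA cluster list was not used here.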

Additional observations from a re-analysis of the deposited data

How the results depend on the processing

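Counts of arms called in any tissue and of contrasts passed by the 6 arms changed by less than 1.5 times under all alternatives run. The strain differences of shares and lengths in liver moved by less than 1 SD. Leaving out 1 of 3 livers cannot move them by 1 SD, so this does not show that they are stable. The strain tests stayed at 0 except for 1 arm called by DESeq2 in liver and 1 in the comparison of liver with other tissues. With the replicate block the liver test also called 0 arms. The read length test called 7 and 3 arms with the further livers of replicate 2 and replicate 3 in place of the six-tissue livers, the latter mir-199a-5p, mir-204-5p and mir-218-1-5p, named after their values were seen.

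The following values changed sign and none of them had passed a test. On the log2 scale the strain difference in liver was -0.014 for mir-126-3p and -0.066 for mir-222-3p with scaling to the ocm, -0.0045 and -0.14 with total reads, -0.030 for mir-222-3p with RLE size factors, and -0.010 for mir-126-3p with the replicate block, which changed no call. The strain difference over 6 tissues was -0.039 for mir-126-3p with no filter, -0.071 without both testis libraries, -0.025 with reads of at least 18 nt and -0.0015 by DESeq2, and 0.82 for mir-221-3p with the further livers of replicate 3. The spleen difference of mir-126-3p was -0.065 without both testis libraries. That of mir-126-5p was -0.073 with RLE, -0.17 with the ocm, -0.20 with total reads, -0.40 and -0.42 with the further livers, -0.28 without both testis libraries and -0.071 by DESeq2.

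Leaving out 1 library at a time, mir-222-3p ran from -1.82 to 0.66 in kidney and from -0.31 to 2.17 in testis. The strain difference in liver ran from -0.58 to 0.52 for mir-126-3p, -0.20 to 0.76 for mir-126-5p and -0.63 to 0.82 for mir-222-3p, and over 6 tissues from -0.16 to 0.065 for mir-126-3p, -0.70 to 0.24 for mir-221-3p and -0.0015 to 0.81 for mir-222-3p.

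The share of calls over all arms that were higher moved with the scaling, from 62.7% (TMM) to 75.2% (total reads) in brain, 53% to 25.2% in liver, 62.4% to 49.6% in spleen, 63.7% to 41.7% in heart and 44.8% to 84.3% in testis. In kidney it was 69.6% with TMM and 52.4% with RLE. Depth limits mir-221 and mir-222 most, with under 30 reads per arm in each six-tissue liver and testis library.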
